A study of Rattus norvegicus with 24 samples.

Results

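Potassium channel genes were followed in the hypothalamus of 18 rats. The members are all probe sets whose single gene symbol begins with Kcn, the root symbol of potassium channel genes. They number 126 of the 31042 rat probe sets on the array, and they report on 75 genes in 17 families named by the letters after Kcn. Of these genes, 31 had several probe sets and 44 had 1.

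The rats were male Wistar rats aged 7 weeks, in 3 groups of 6. Control rats (6) were neither restrained nor exposed to odour. Stress rats (6) were restrained in wire mesh for 2 h. Linalool rats (6) were restrained for the same 2 h inside a 40 L box into which 20 µL of (R,S)-linalool, a floral-smelling terpene alcohol, had been evaporated. Each array carried RNA from the hypothalamus of 1 rat, excised as a block by landmarks on the underside of the brain. Normalized sets of 12 arrays were deposited, per the series design text. The first joins control and stress rats, and the second joins the same 6 stress rats with the linalool rats. Each comparison was made inside its own set. No group breathed linalool without restraint, and the comparisons share the 6 stress rats. The labels give a box for linalool rats only, so the odour and the box cannot be told apart.

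Potassium channels let potassium leave the cell. They set the resting potential of neurons and glia, end the action potential and fix how fast a neuron can fire again. Voltage-gated subunits (Kcna to Kcnd, Kcnh, Kcnq) open on depolarization, and Kcng, Kcns and Kcnv subunits modify other voltage-gated subunits. Calcium- and sodium-activated subunits (Kcnm, Kcnn, Kcnt) follow ion entry. Inward rectifiers (Kcnj) include the channels opened by G proteins and closed by ATP, and Kcnk subunits carry leak currents. Kcnab, Kcne and Kcnip genes encode accessory subunits. In the hypothalamus such channels shape the firing of neurosecretory and metabolic neurons, and astrocytes use inward rectifiers to clear potassium.

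Values are the deposited log2 signals. For most probe sets these vary between arrays far less than a signal of this kind usually does. A probe set with a residual SD (the spread of the 6 rats around their group mean, pooled over the groups) below 0.01 is called compressed here. Of the members, 64.3% were compressed in the control and stress set and 69.8% in the stress and linalool set, against 83.5% and 83.7% of all rat probe sets. The median SD of compressed members was 0.000185 and 0.000175, and that of the other members 0.223 and 0.172. A log2 difference of a compressed probe set does not give its size, so the difference is expressed as a multiple of the residual SD, and its standard error (SE) is then 0.577. Where a log2 difference is given, it is that of the deposited values and may understate the change. Tests were limma's, two-sided, with p-values adjusted (Benjamini-Hochberg) over all 31042 rat probe sets and a threshold of 0.05. The number of arrays limits the precision.

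Setting linalool rats against stress rats asked which transcripts differed when the odour, given in the box, was added to restraint. Transcripts of Kcnc2, a Kv3 subunit that lets neurons fire fast, of Kcnma1, the pore of the large-conductance calcium-activated (BK) channel, and of Kcnd2, a Kv4 subunit of the A-type current, were lower in linalool rats on every probe set that reports on them. Among these probe sets, the compressed Kcnc2 1371200_at had the opposite sign after median centring and after quantile normalization. Kcnma1 1372929_at passed in 3 of the 12 fits lacking 1 rat and did not pass after quantile normalization. Of the 126 members, 35 passed the test, 32 lower and 3 higher in linalool rats. That is 27.8% of the members, beside 25.0% of all rat probe sets. Lower calls made up 25.4% of the members and 10.8% of all probe sets, and higher calls 2.38% and 14.2%. The 32 lower probe sets belong to 23 genes and the 3 higher ones to Kcnj16 and Kcnt1, with no gene called both ways. RNA from whole blocks cannot tell fewer cells of a type from less RNA per cell.

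The direction of the compressed members depended on how arrays were scaled. Centring each array on its median shifted the median difference of all probe sets by only 0.00761, which is many residual SDs of a compressed probe set. With it 89 members passed as higher and 17 as lower, and 94.9% of all calls on the array were higher, against 56.7% in the deposited values. Of the 18 compressed members called, 16 then had the opposite sign, and 14 did so after quantile normalization. All 17 called members that were not compressed kept their direction and passed with median centring, and 13 of them passed with quantile normalization. Centring could not have turned their direction: its shift is small beside the log2 falls of the lower ones and moves the higher one further up. These 17 are described first.

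Among the 38 members that were not compressed, 16 were lower (42.1%) and 1 was higher (2.63%), beside 21.3% and 28.4% of the 5058 such probe sets on the array. The 1 higher member, Kcnj16 1370076_at, had a residual SD of 0.0101, just above the limit, and was compressed in the other set. Their median difference was -1.14 residual SDs, beside 0.04 over all probe sets that were not compressed. Linalool and stress rats did not overlap for 15 of the 126 members on the lower side (11.9%; 4.36% of all probe sets) and for 0 on the higher side (7.56% of all).

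**Figure D1:**
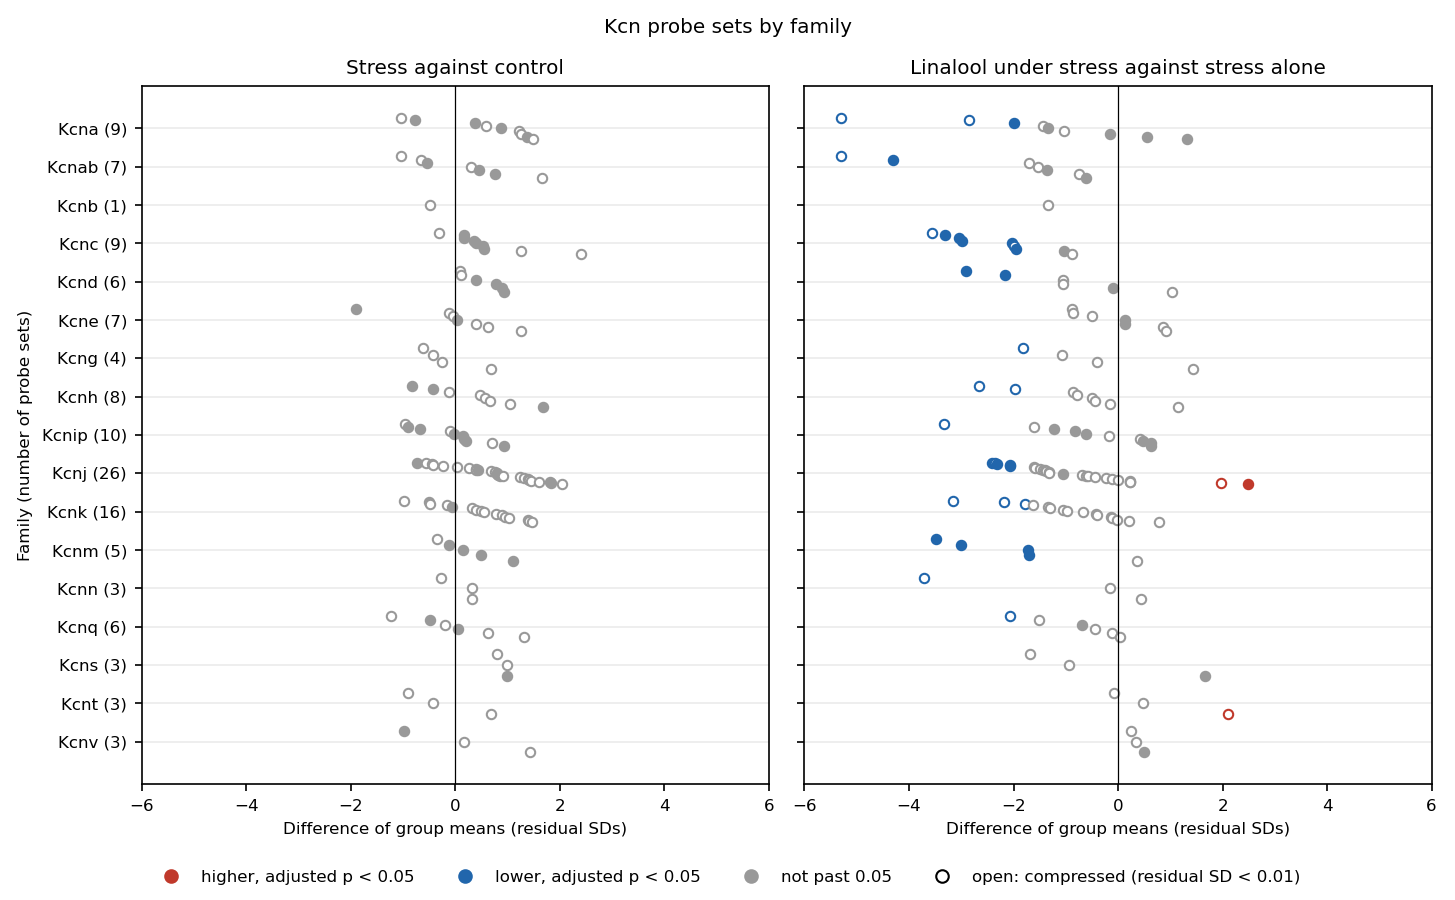
Difference of group means in residual SDs (x axis) for each of the 126 Kcn probe sets, by family (rows), for stress rats against control rats (left) and linalool rats against stress rats (right). Filled points are not compressed, blue and red mark lower and higher calls, and all 35 calls lie in the right panel, 32 of them to the left of 0.

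The regulatory sequences shown are those of the 3 genes whose several probe sets were all called lower. Each is the 250 bases before the annotated start, on the plus strand, 5′ to 3′, from RefSeq (build GRCr8): Kcnc2 at chr7:49587364-49587613, Kcnma1 at chr15:351675-351924 and Kcnd2 at chr4:50742235-50742484. Capitals mark the GC box GGGCGG and the core TGACG of the cyclic AMP response element, searched on both strands.
Kcnc2: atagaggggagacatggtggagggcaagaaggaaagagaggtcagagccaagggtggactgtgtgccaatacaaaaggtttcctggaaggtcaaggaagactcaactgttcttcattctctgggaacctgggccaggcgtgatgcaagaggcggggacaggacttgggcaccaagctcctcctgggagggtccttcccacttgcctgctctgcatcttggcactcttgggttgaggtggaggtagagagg
Kcnma1: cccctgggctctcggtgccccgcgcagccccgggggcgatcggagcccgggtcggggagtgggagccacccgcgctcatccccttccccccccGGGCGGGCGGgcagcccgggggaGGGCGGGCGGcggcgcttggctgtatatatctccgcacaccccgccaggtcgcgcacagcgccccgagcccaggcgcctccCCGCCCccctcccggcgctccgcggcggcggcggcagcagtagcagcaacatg
Kcnd2: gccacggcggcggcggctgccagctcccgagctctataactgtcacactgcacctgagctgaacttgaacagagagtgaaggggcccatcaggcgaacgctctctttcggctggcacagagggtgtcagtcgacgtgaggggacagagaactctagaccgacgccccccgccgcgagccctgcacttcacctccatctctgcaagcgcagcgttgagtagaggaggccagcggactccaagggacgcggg
The Kcnma1 window holds 5 matches to the GC box, 4 of them overlapping in pairs and 1 on its own, and 79.6% of its bases are G or C. The Kcnc2 and Kcnd2 windows hold 0 matches to either motif, at 56% and 64% G or C. Of the 9 genes with a lower probe set that was not compressed, 8 had a window in the RefSeq table. GGGCGG occurred in 3 of these 8 (37.5%) and in 32.4% of all 27457 windows, and TGACG in 0 of 8 and in 19% of all. Of all 75 member genes 52 had a window, and GGGCGG occurred in 55.8% and TGACG in 21.2% of these. Of the 50 genes with no called probe set 34 had a window, with 61.8% and 23.5%. The median share of G or C was 63.4% in the windows of the member genes and 52% in all windows, and GGGCGG holds only G and C. The motif shares were not compared at like base composition. With 8 windows among the lower genes, they are a description.

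In the Kcnc family, 7 of 9 probe sets were lower (6 of Kcnc2 and 1 of Kcnc4), beside 10.8% of all rat probe sets. The 2 compressed ones among the 7 (Kcnc2 1371200_at and Kcnc4 1393163_at) had the opposite sign after median centring. Probe set 1388225_at of Kcnc2 read 8.50, 8.96 and 9.50 (lowest, median and highest log2 signal) in stress rats and 7.67, 7.97 and 8.35 in linalool rats. Every linalool rat lay below every stress rat. The mean fell by 1.00 (SE 0.189, adjusted p = 0.00373 in limma), a 1.99-fold lower signal. Probe set 1370559_at read 9.89, 10.16 and 10.59 in stress rats and 9.21, 9.42 and 9.84 in linalool rats (difference -0.74, SE 0.144, adjusted p = 0.00405). Probe set 1370557_a_at read 8.88, 9.18 and 9.58 against 8.30, 8.50 and 8.77 (difference -0.70, SE 0.123, adjusted p = 0.00247). The groups did not overlap on either. On 1370558_a_at (-0.52, adjusted p = 0.0296) and 1370439_a_at (-0.48, adjusted p = 0.0246) the highest linalool rats reached into the range of the stress rats. These calls passed in 7 and 9 of the 12 fits lacking 1 rat, and that of 1370558_a_at did not pass after quantile normalization. The compressed sixth probe set of Kcnc2, 1371200_at, was lower by 1.99 residual SDs (adjusted p = 0.0296 in limma), and had the opposite sign after quantile normalization too.

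Kcnc4, another Kv3 subunit, differed by -3.56 residual SDs on 1393163_at (adjusted p = 0.00274) with no overlap, and by -0.88 on 1391369_at, which did not pass (adjusted p = 0.288). Kcnc1, the Kv3 subunit of many fast-spiking neurons, read 11.31 ± 0.0888 in stress rats and 11.23 ± 0.0581 in linalool rats (mean ± SD, n = 6 each), a difference of -0.08 with an SE of 0.0433 (adjusted p = 0.209 in limma).

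BK channels are built from Kcnma1 with accessory beta subunits, of which Kcnmb4 is the neuronal one. Of the 5 probe sets of the Kcnm family, 4 were lower, none of them compressed. Of all rat probe sets 10.8% were lower, and of those not compressed 21.3%. Kcnma1 read 8.53, 8.90 and 9.19 in stress rats and 7.58, 8.06 and 8.24 in linalool rats on 1369334_at, with no overlap between the groups. This was a fall of 0.89 (SE 0.147, adjusted p = 0.00189), or 1.85-fold. On 1370472_a_at the signals were 8.33, 8.71 and 8.93 against 7.78, 7.94 and 8.36, where only the highest linalool rat reached the lowest stress rat (difference -0.66, SE 0.126, adjusted p = 0.00397). On 1372929_at they were 8.53, 8.87 and 8.95 against 8.18, 8.36 and 8.84, with 2 linalool rats above the lowest stress rat. That difference of -0.37 (adjusted p = 0.0493) passed in 3 of the 12 fits lacking 1 rat. Kcnmb4 went from 9.45 ± 0.138 to 9.20 ± 0.158 (difference -0.26, SE 0.0856, adjusted p = 0.0473) and passed in 4 of those fits. Neither of these last calls passed after quantile normalization. Kcnmb1, the smooth muscle beta subunit, differed by 0.36 residual SDs (adjusted p = 0.681).

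The A-type current, which delays firing, is carried by Kcnd subunits with Kcnip partners and by Kcna4. Kcnd2 read 10.50, 10.95 and 11.07 in stress rats and 10.07, 10.37 and 10.55 in linalool rats on 1387476_at. Only stress rat 2 lay within the range of the linalool rats. The difference was -0.57 (SE 0.113, adjusted p = 0.00459), a 1.48-fold lower signal, and on 1379863_at it was -0.47 (SE 0.126, adjusted p = 0.0191). Both probe sets passed in all 12 fits without 1 rat and after quantile normalization. Kcnd1, another Kv4 subunit, did not pass on its single compressed probe set (1.03 residual SDs, adjusted p = 0.216). Kcnd3, also a Kv4 subunit, did not pass on any of its 3 probe sets, and the one that was not compressed read 10.01 ± 0.122 and 10.00 ± 0.0866 (difference -0.01, SE 0.0612, adjusted p = 0.917). Kcna4 fell by 0.28 (8.61 ± 0.144 to 8.33 ± 0.135, SE 0.0806, adjusted p = 0.0267), a call not kept after quantile normalization.

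Kcnip proteins bind Kv4 channels and sense calcium. Of their 10 probe sets only 1369603_at of Kcnip1 passed (-3.33 residual SDs, adjusted p = 0.00239), where 25.0% of all rat probe sets did. This probe set had the opposite sign after median centring. It is compressed, and the other Kcnip1 probe sets, which are not, went the other way without passing (0.17, adjusted p = 0.456, and 0.13, adjusted p = 0.579). Kcnip4 differed by -0.19 and -0.10 on the 2 probe sets measured (adjusted p = 0.142 and 0.322).

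Kcna genes encode the Kv1 subunits of axons, and Kcnab genes their beta subunits. Kcnab2 on 1397663_at read 8.82, 8.88 and 9.02 in stress rats and 8.44, 8.58 and 8.66 in linalool rats. The lowest stress rat lay above the highest linalool rat, and the fall of 0.32 had an SE of 0.0431 (adjusted p = 0.000629). The compressed probe set 1387689_at differed by -5.30 residual SDs (adjusted p = 0.000276), while 1390674_at (-0.07, adjusted p = 0.103) and 1391203_at (-1.53 residual SDs, adjusted p = 0.0774) did not pass. Kcna2 gave a split picture. Its compressed probe set 1370612_at differed by -5.30 residual SDs (adjusted p = 0.000279) with no overlap, whereas 1379092_at, which is not compressed, read 10.37, 11.21 and 11.29 in stress rats and 10.77, 11.06 and 11.23 in linalool rats (difference -0.04, SE 0.158, adjusted p = 0.876). Both compressed calls, Kcnab2 1387689_at and Kcna2 1370612_at, changed sign after median centring and after quantile normalization. Kcna6, another Kv1 subunit, likewise differed by -2.84 residual SDs on the compressed 1388263_at (adjusted p = 0.00536; opposite sign under both scalings) and by 0.07 on 1393124_at, which is not compressed (adjusted p = 0.114). Kcna1 read 11.09 ± 0.0829 and 11.00 ± 0.0529 (difference -0.09, adjusted p = 0.111).

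Of the 26 Kcnj probe sets, 5 were lower and 2 higher, beside 10.8% and 14.2% of all rat probe sets. Kcnj10, the main inward rectifier of astrocytes, read 7.88, 7.99 and 8.05 in stress rats and 7.66, 7.79 and 7.87 in linalool rats, and the groups did not overlap (difference -0.19, SE 0.0442, adjusted p = 0.0115). Kcnj16, which forms mixed channels with Kcnj10, was higher on both of its probe sets. On 1370076_at it read 9.51, 9.52 and 9.52 in stress rats and 9.52, 9.54 and 9.55 in linalool rats (difference 0.02, SE 0.00581, adjusted p = 0.0101). Linalool rat 5 lay within the stress range and the other 5 above it. On the compressed 1373991_at the difference was 1.97 residual SDs (adjusted p = 0.0299), with the opposite sign after quantile normalization. Kcnj9, a subunit of the channels that G proteins open, fell by 0.23 (8.31 ± 0.115 to 8.08 ± 0.0823, SE 0.0576, adjusted p = 0.0142), and Kcnj12, a strong inward rectifier, by 0.36 (8.15 ± 0.166 to 7.79 ± 0.182, SE 0.1, adjusted p = 0.0228). Of the further G protein-gated subunits, Kcnj5 did not pass on either probe set (-0.24 and -1.62 residual SDs, adjusted p = 0.802 and 0.0617), and Kcnj3 and Kcnj6 did not pass on the probe sets with their highest means (-1.32 residual SDs and -0.07 log2, adjusted p = 0.117 and 0.201). Neither did Kcnj8 and Kcnj11, the pores of ATP-sensitive channels, on theirs (0.23 residual SDs each, adjusted p = 0.806 and 0.804). Other, compressed probe sets of Kcnj3 (1369740_at, -2.36 residual SDs, adjusted p = 0.0131) and Kcnj11 (1387698_at, -2.08 residual SDs, adjusted p = 0.0234) passed as lower, with the opposite sign under both scalings.

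**Figure D2:**
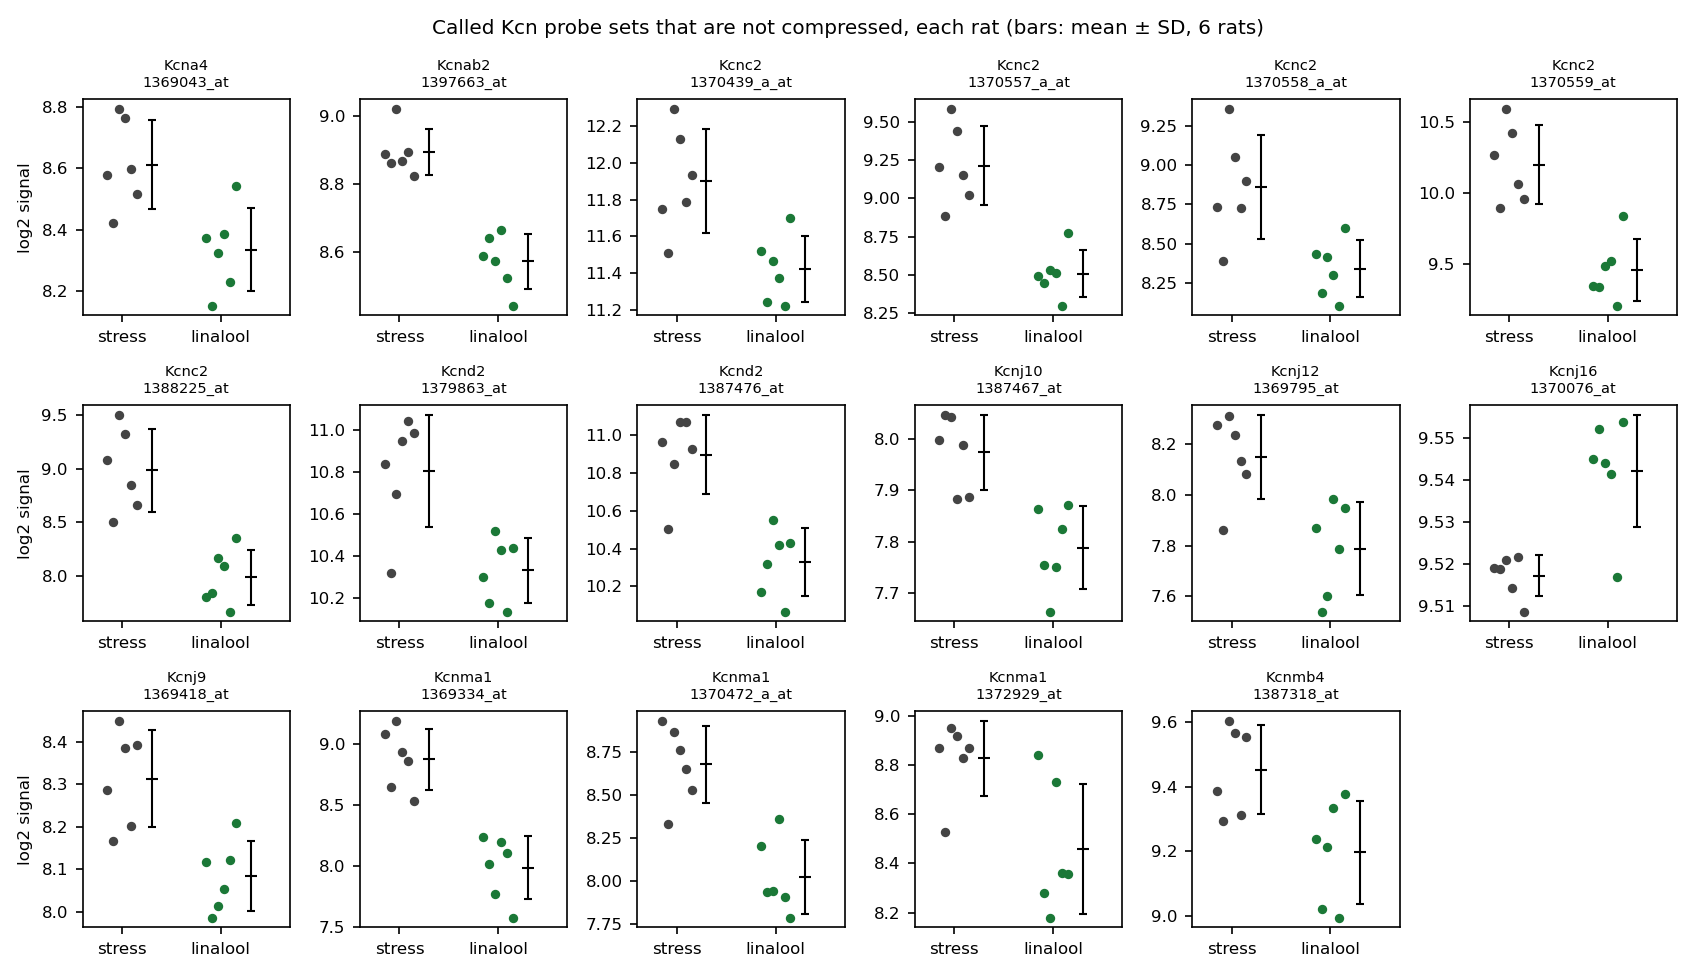
Log2 signal (y axis) of each stress and each linalool rat for the 17 called Kcn probe sets that are not compressed, with the mean ± SD of 6 rats beside the points. Linalool rats lie lower on 16 panels, with no overlap on 6 of these, and higher on that of Kcnj16, whose axis spans far less than 0.1.

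The remaining families held calls on compressed probe sets only. Kcnn3, a small-conductance calcium-activated channel, differed by -3.72 residual SDs (adjusted p = 0.00143), Kcnk3, an acid-sensitive leak channel, by -3.16 on 1 of its 3 probe sets (1398313_a_at, adjusted p = 0.00341), and Kcnh2, the ERG channel, by -2.66 (adjusted p = 0.00811). All 3 had the opposite sign after median centring and after quantile normalization. Kcnt1, a sodium-activated channel, was higher by 2.11 residual SDs on 1 of 3 probe sets (1395102_at, adjusted p = 0.022). That call did not pass after quantile normalization, and median centring, which moves every compressed probe set upward, could not have removed it. The other lower calls in these families were those of Kcnk10, Kcnk12, Kcnh8, Kcng2 and Kcnq5 (1391314_at), between -2.17 and -1.78 residual SDs, and each had the opposite sign after median centring. In counts, 3 of 16 Kcnk, 2 of 8 Kcnh, 1 of 3 Kcnn, 1 of 6 Kcnq and 1 of 4 Kcng probe sets were lower, and 1 of 3 Kcnt was higher. No probe set of Kcnb (1), Kcne (7), Kcns (3) or Kcnv (3) passed. Beside these counts, 10.8% of all rat probe sets were lower and 14.2% higher. In families this small, calls of 1 to 3 probe sets are a description. The Kcnq3 and Kcnq5 probe sets with the highest means, subunits of the M current that muscarinic receptors close, had differences of -1.51 and -0.44 in residual SDs, with adjusted p = 0.078 and 0.617. Kcns3, which modifies other subunits, came closest to a higher call among members that were not compressed (8.17 ± 0.168 to 8.42 ± 0.141, difference 0.26, SE 0.0896, adjusted p = 0.0556).

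Probe sets of 1 gene did not always move together. Of the 31 genes with several, 3 had all probe sets lower (Kcnc2, Kcnd2 and Kcnma1), 1 had all higher (Kcnj16), 12 had some called and some not, and 15 had none called. With 1 probe set per gene, the one with the highest mean, 15 of 75 genes were lower and 3 higher (9.66% and 20.1% of the 14217 genes tested that way). Among 26 measured genes with known roles in hypothalamic neurons or glia, 7 were lower on that probe set, 1 was higher and 18 did not pass. Lower were Kcnc2, Kcnd2, Kcnma1, Kcnmb4, Kcnj9, Kcnj10 and Kcnn3, and higher was Kcnt1. Over all rat probe sets 10.8% were lower and 14.2% higher. The Kcnn3 and Kcnt1 probe sets are compressed, and Kcnn3 had the opposite sign after median centring and quantile normalization. The calls of Kcnma1, Kcnmb4 and Kcnt1 did not pass after quantile normalization.

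Single rats weighed on the counts. Leaving out each of the 12 rats in turn, 22 of the 35 calls passed every time, including 11 of the 17 that were not compressed. Without linalool rat 2 there were 23 calls. Among the 16 lower members that were not compressed, stress rat 2 had the lowest value of its group on 13 and linalool rat 6 the highest of its group on 9.

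Some markers of neighbouring tissue also differed. All 6 markers of thalamus, which borders the block, were lower in linalool rats, 2 of them past the threshold (Ntng1, -0.67, and Rora, -0.69). Their mean score ran from -1.68 to 1.48 residual SDs in stress rats and from -2.54 to -0.61 in linalool rats. Stress rat 2 had the lowest score of its group and linalool rat 6 the highest of its own. Among the 16 lower members that were not compressed, these rats held those places on 13 and 9. Linalool rat 6 was instead the lowest of its group on Kcnma1 1369334_at, Kcnma1 1370472_a_at and Kcnab2 1397663_at. Of 9 neuronal markers 8 were negative and 2 were called lower (Syt1 and Rbfox3; score -0.48 to 0.39 against -1.89 to -0.17). Of 12 measured hypothalamic markers 10 were positive and 2 were called higher (Hdc and Npy; score -0.81 to 0.81 against -0.03 to 1.96). The hypothalamic peptide genes Pmch, Avp and Oxt had mean log2 signals above 10 in every group. The score of pericytes and smooth muscle was the only one of the marker lists on which the groups did not overlap (-0.46 to 0.60 against -2.71 to -1.53). Of its 5 markers only Rgs5 passed (difference -0.65, adjusted p = 2.25e-05), at -9.02 residual SDs. Among 7 astrocyte markers 1 was lower (Slc1a2), and the other 6 did not pass. Over all rat probe sets 10.8% were called lower and 14.2% higher. Each marker was read on its probe set with the highest mean, and with 1 such probe set per gene 9.66% were lower and 20.1% higher. No thalamus marker was compressed, and of all probe sets that were not compressed 21.3% were lower. In marker lists this short, calls of 1 or 2 markers are a description. Bacterial poly-A control probe sets report on RNA added at labelling and not on rat genes. They were fitted apart from the rat probe sets, with p-values adjusted over the 57 array controls alone. In that fit 15 of 27 were higher in linalool rats and 0 lower, a count not on the same footing as the shares above. The part of the tissue markers and of the labelling controls in the channel result was not tested.

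**Figure D3:**
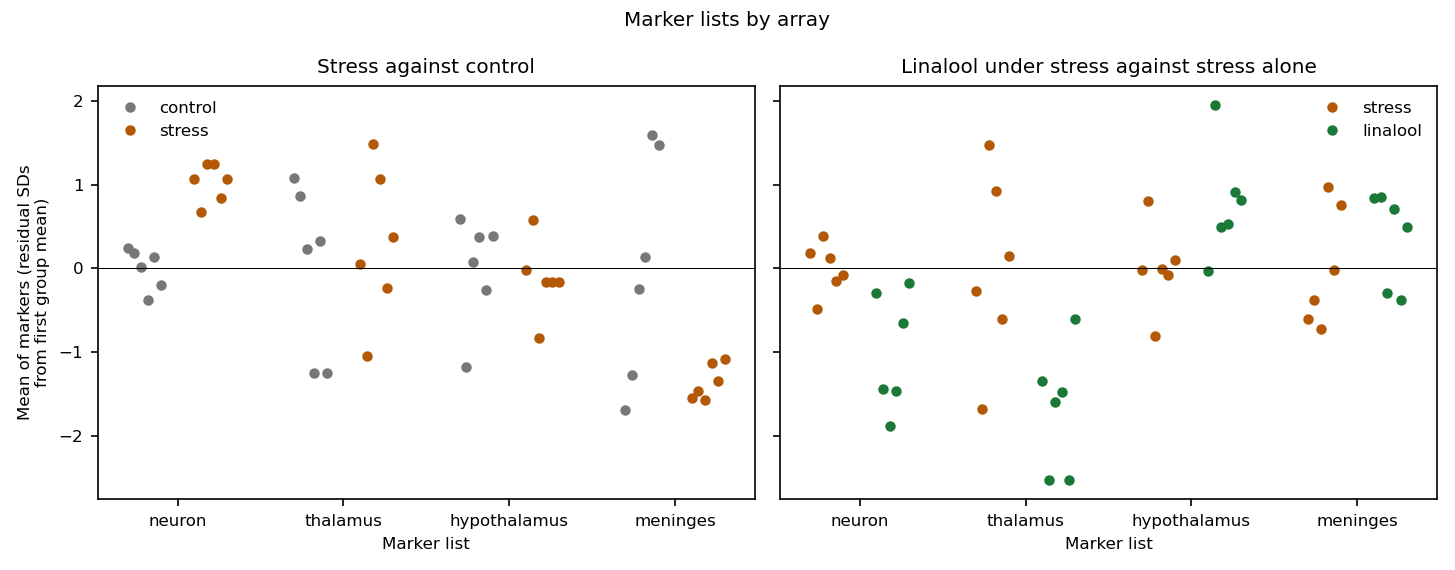
Mean of each marker list (y axis, residual SDs from the mean of the first group) for every array, in the control and stress set (left) and the stress and linalool set (right). Thalamus scores of linalool rats reach down to -2.54, and meningeal scores of stress rats in the left panel lie between -1.58 and -1.08.

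Partners and pumps were counted in the same way: proteins that anchor potassium channels or join them, HCN pacemaker channels, calmodulins, sodium-potassium pump subunits and potassium-chloride carriers. Of 49 probe sets (30 genes of 40 listed), 12 were lower and 10 higher, with the background of 10.8% and 14.2% over the array. Dlg4, the scaffold PSD-95 that clusters Kv1 channels, fell from 9.59 ± 0.0525 to 9.16 ± 0.0978 on 1371183_a_at (difference -0.43, SE 0.0453, adjusted p = 0.000215), but its compressed probe set 1395468_at was higher (adjusted p = 0.0152). Cntnap2, which gathers Kv1 channels beside the node of Ranvier, fell by 0.39 (SE 0.0728, adjusted p = 0.00355), and Ank3, which anchors channels at the axon initial segment, by 0.32 (SE 0.0603, adjusted p = 0.00377). Adam22, a receptor in the Kv1 complex, differed by -5.29 residual SDs on the compressed 1385854_at (adjusted p = 0.000302; opposite sign after median centring). On the other side, the calmodulin gene Calm2, whose product is the calcium sensor of Kcnn and Kcnq channels, rose from 13.11 ± 0.0403 to 13.40 ± 0.0309 (difference 0.29, SE 0.0207, adjusted p = 3.42e-05). Vapb, a membrane protein that tethers the endoplasmic reticulum and binds Kv2 channels, rose by 0.36 (9.45 ± 0.0676 to 9.81 ± 0.0678, SE 0.0391, adjusted p = 0.000237) and, on the compressed 1390257_at, was higher by 6.35 residual SDs, with the opposite sign after quantile normalization. The pump subunit Atp1b3 was higher by 3.83 residual SDs (adjusted p = 0.00148). Groups did not overlap for any probe set named here except Dlg4 1395468_at, but the genes named were picked by smallest p in this same comparison. Among all 49 partner and pump probe sets they did not overlap for 10, beside 3700 of the 31042 rat probe sets. With compressed probe sets left out 9 of 15 were lower and 2 higher, beside 26.2% and 30.4% of all probe sets in that fit.

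Stress against control asked which of these transcripts differed after restraint itself. No member passed: 0 of 126 in limma, where 0.554% of all rat probe sets did. At an unadjusted p below 0.05 there were 21 members (16.7%; 16.0% of all probe sets), and the groups did not overlap for 0 members (1.78% of all). Differences were positive for 86 members and negative for 40 (55.1% of all probe sets were positive), with a median of 0.41 residual SDs beside 0.12 over all probe sets. The signs of the 81 compressed members depended on scaling here too: median centring, which moved the median difference of all probe sets to 0.00966, made 113 members and 91% of all probe sets positive. For 31 of the 45 members that were not compressed the difference was positive, beside 41.4% of all 5107 such probe sets on the array. The median over these 45 members was 0.37 residual SDs, beside -0.21 over all such probe sets.

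The 8 members with the smallest p are given without any claim of a change. Kcnc4 1393163_at ran from -1.35 to 1.64 residual SDs around the control mean in control rats (median -0.26) and from 1.19 to 3.19 in stress rats (median 2.65), with an adjusted p = 0.11. Kcnj15, an inward rectifier, on 1374251_at ran from -0.93 to 0.62 in control rats and from -0.30 to 3.34 in stress rats, 1 stress rat standing within the control range (2.04, adjusted p = 0.152). Kcne4, an accessory subunit, read 8.13, 8.23 and 8.61 in control rats and 7.78, 8.00 and 8.17 in stress rats (difference -0.30, SE 0.09, adjusted p = 0.169). Kcnj11 had 2 probe sets among the 8. On 1391007_s_at it read 8.61, 8.68 and 8.78 against 8.75, 8.79 and 8.83 (difference 0.10, SE 0.0312, adjusted p = 0.178), and 1387698_at differed by 1.82 residual SDs (adjusted p = 0.182). Kcnh2 read 8.82, 8.95 and 8.99 against 8.96, 9.04 and 9.12 (difference 0.11, SE 0.0385, adjusted p = 0.208). For Kcnab2 1387689_at the difference was 1.66 residual SDs (adjusted p = 0.227), and for Kcnj6 1370704_at it was 1.60 (adjusted p = 0.233).

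**Figure D4:**
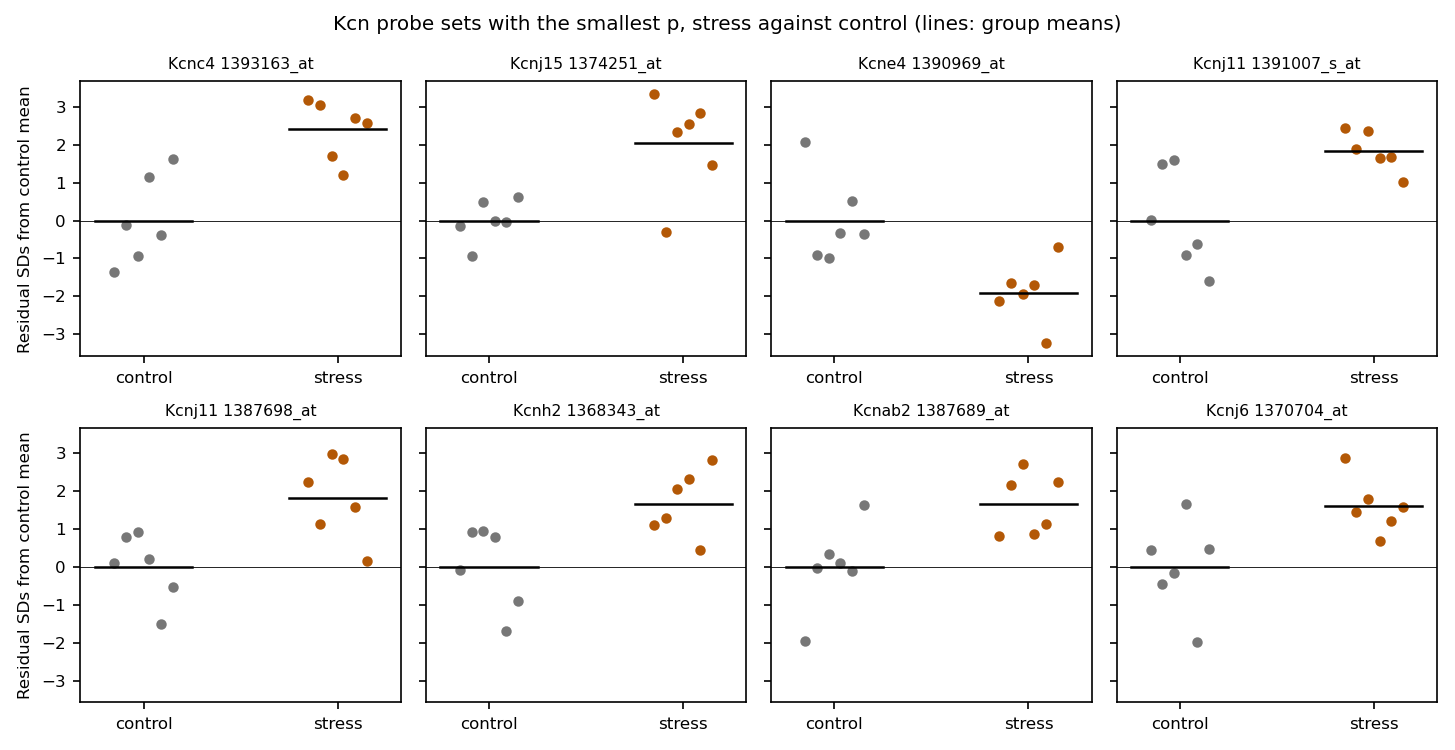
Position of each control and each stress rat, in residual SDs from the control mean (y axis), for the 8 Kcn probe sets with the smallest p; lines are group means. On each panel the groups overlap, and in the Kcnj15 panel 1 stress rat lies within the control range.

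Leaving out stress rat 2 brought 1 member past the threshold, Kcnj15 1374251_at (adjusted p = 0.0381), and in each of the other 11 fits without 1 rat no member passed. Control arrays spread widely: controls 5 and 6 lay at -189 and -102 on the first principal component (23.1% of the variance), on which all stress arrays were between 32.5 and 105. Marker scores of meninges and fibroblasts ran from -1.69 to 1.60 in control rats and from -1.58 to -1.08 in stress rats, with 14 of 14 markers negative and 0 past the threshold. Neuronal scores did not overlap (-0.38 to 0.24 against 0.67 to 1.26, 8 of 9 positive, 0 past it). With controls 5 and 6 left out, with controls 4, 5 and 6 left out, or with the meningeal score as a covariate, again no member passed, and on the whole array 0, 1 and 0 probe sets did. The part of these markers in the values was not tested.

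Of the 9 genes with a lower probe set that was not compressed, the 4 with the smallest adjusted p are given for both comparisons, which share the stress rats, each on such a probe set with its largest log2 fall. Kcnc2 1388225_at read 8.85 ± 0.483 in control and 8.92 ± 0.385 in stress rats of the first set (difference 0.07, SE 0.252, adjusted p = 0.906 in limma), beside -0.996 in the second. Kcnma1 1369334_at read 8.88 ± 0.188 and 8.85 ± 0.254 (difference -0.03, SE 0.129, adjusted p = 0.932), beside -0.89. Kcnd2 1387476_at read 10.67 ± 0.294 and 10.87 ± 0.21 (difference 0.20, SE 0.148, adjusted p = 0.509), beside -0.57. Kcnab2 1397663_at read 8.83 ± 0.0734 and 8.87 ± 0.0331 (difference 0.04, SE 0.0329, adjusted p = 0.524), beside -0.32. None of these stress differences exceeded the SD of the control rats. That of Kcnab2 was larger than the SD of the stress rats.

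**Figure D5:**
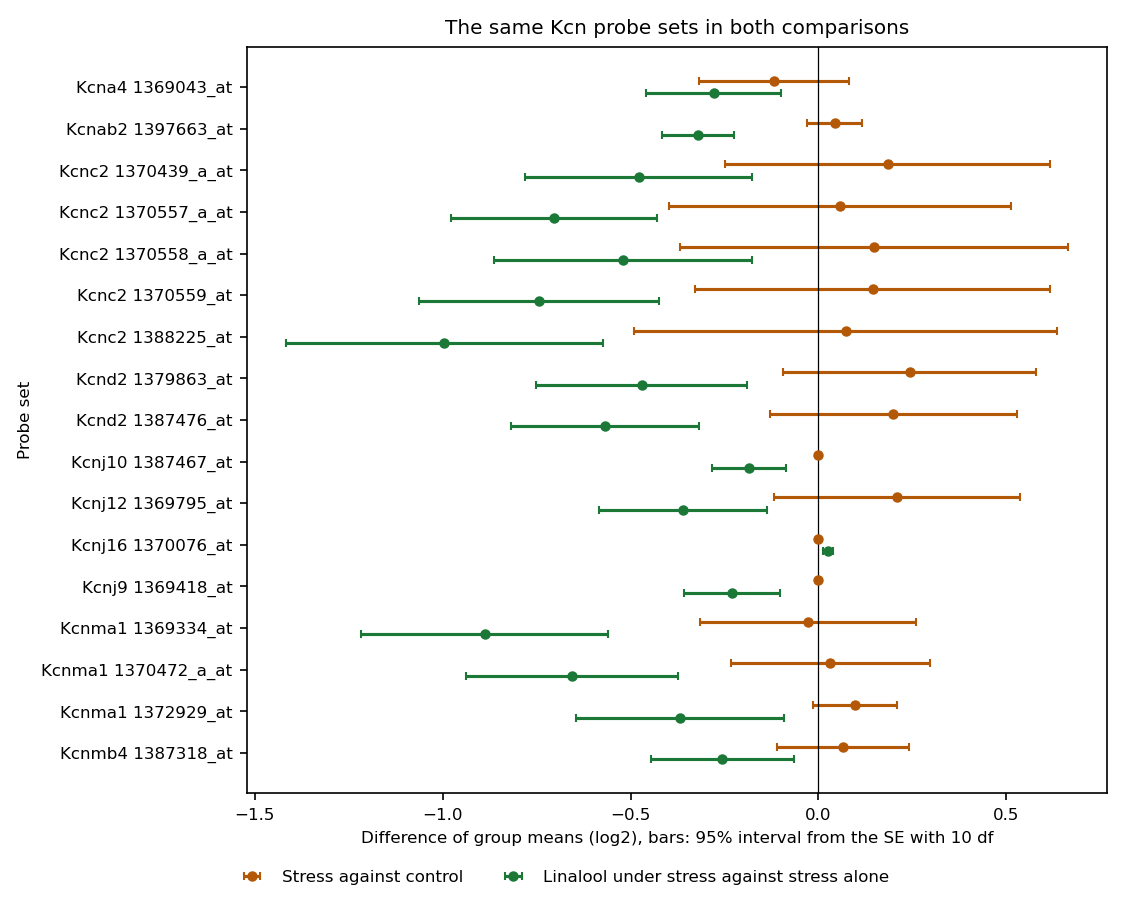
Difference of group means in log2 (x axis; bars are the 95% interval from the SE with 10 degrees of freedom) for the 17 called members that are not compressed, for stress rats against control rats and for linalool rats against stress rats. For 16 of them the linalool difference lies below 0. In the stress comparison Kcnj9, Kcnj10 and Kcnj16 are compressed and their points sit at 0.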

How the data were processed

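The members and lists were chosen with earlier results of these data known. The authors deposited log2 signals per probe set (5.593 to 14.93), normalized in 2 sets per the series design text. The scale was read from the values, and how probes were summarized was not stated in the sources used here. All 31042 rat probe sets were fitted per set in R 4.3.3 by limma 3.58.1 (linear model with moderated variances, 57 array controls left out, no filter, Benjamini-Hochberg, 0.05), and the procedure was tested on simulated data. The 57 array controls were fitted apart in the same way, with adjustment over these alone. Symbols come from the platform table (20826 probe sets with 1 symbol, 436 with several, 9780 with none listed). All 126 members matched RefSeq GRCr8 by gene identifier. Compression below a residual SD of 0.01 has an unknown origin. The labels describe separate animals.

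Named in each comparison were up to 12 higher and 12 lower calls by smallest p (or the 8 smallest p where fewer than 8 passed), the brightest probe set of the 26 genes with known roles, other probe sets of called genes, and up to 4 partners per direction. The remaining called members, Kcna6 1393124_at and Kcns3 were named after their values were seen. Marker lists without a result in the text were counted alike. In the linalool comparison 1 of 5 oligodendrocyte markers was lower, and 2 of 6 microglial and 1 of 6 endothelial markers were higher. Over all rat probe sets 10.8% were lower and 14.2% higher. In that comparison 0 of 2 precursor, 4 striatal, 3 choroid plexus and 14 meningeal markers passed. In the stress comparison 1 of 6 endothelial markers was lower, beside 0.213% of all rat probe sets, and no other marker passed. Alternatives were other scalings, feature choices, variance models, blocks and omitted arrays.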

Additional observations from a re-analysis of the deposited data

Results flagged for a closer look

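In 8 of the 238 groups of 6 rats examined for the named probe sets, 1 rat stood apart from the others of its group by more than Dixon's critical value at the 95% level (its gap to the nearest rat as a share of the group's range); chance alone gives about 1 in 20. Stress rat 2 accounts for 4 of them. Its signal of Kcna2, a Kv1 subunit, on 1379092_at was the lowest of the stress rats in both normalized sets, which hold the same RNA, with ratios of 0.846 in the set with controls and 0.868 in the set with linalool rats. It was also the lowest for Kcnma1, the BK channel pore, on 1372929_at, with ratios of 0.725 and 0.715. Stress rat 3 was the highest of its group for Kcnab2, a Kv1 beta subunit, on 1397663_at (0.801 and 0.644). Linalool rat 5 was the lowest of its group for Kcnj16, an inward rectifier, on 1370076_at (0.662), and linalool rat 6 the highest for the anchor gene Ank3 on 1371132_a_at (0.67).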

How the results depend on the processing

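Counts of called members in the linalool comparison (35) moved by over 1.5 times under several settings. They were 106 with median centring (89 higher, 17 lower), 13 with quantile normalization, 18 with 1 probe set per gene, 23 with probe sets below the median level left out, and 17 with compressed probe sets left out, an alternative chosen after seeing the data. Leaving out 1 rat gave 23 to 37. For partners and pumps (22) the counts were 44, 13, 14 and 11 with median centring, quantile normalization, 1 probe set per gene and compressed probe sets left out. In the stress comparison, leaving out 1 rat gave 0 to 1 members (Kcnj15) and 0 to 1 partners, and leaving out compressed probe sets gave 1 partner. Correlations of same-numbered rats ran from 0.0755 to 0.223 in the stress comparison and from -0.105 to 0.182 in the linalool comparison. The same-numbered rat was the best match for controls 1, 3 and 6 and, in the linalool comparison, for stress rat 2 only. Such values cannot settle whether the numbers pair the rats. With a replicate block 27 members passed in the linalool comparison and 0 in the stress comparison. An unmoderated statistic and a variance trend each gave 33. Reversals among the probe sets named touched compressed ones alone. After median centring the log2 differences were positive for Adam22 (0.00731), Kcna2 (0.00722), Kcna6 (0.00710 and 0.00713), Kcnab2 (0.00719 and 0.00744), Kcnc2 (0.00743), Kcnc4 (0.00727 and 0.00747), Kcnd3 (0.00747), Kcng2 (0.00729), Kcnh2 (0.00739), Kcnh7 (0.00745), Kcnh8 (0.00731), Kcnip1 (0.00663), Kcnj11 (0.00731), Kcnj3 (0.00707 and 0.00744), Kcnk1 (0.00743), Kcnk10 (0.00713), Kcnk12 (0.00726), Kcnk2 (0.00745), Kcnk3 (0.00738 and 0.00733), Kcnn1 (0.00757), Kcnn3 (0.00718), Kcnq3 (0.00732), Kcnq5 (0.00753 and 0.00749) and Kcnt1 (0.00759). These values lie near the shift of 0.00761 that centring gives to all probe sets. After quantile normalization the reversed values were those of Kcna2 (0.00420), Kcna6 (0.00416), Kcnab2 (0.00414), Kcnc2 (0.00435), Kcnh2 (0.00167), Kcnh8 (0.00277), Kcnj11 (0.00739), Kcnj16 (-0.00668), Kcnj3 (0.000713), Kcnk10 (0.00156), Kcnk12 (0.00390), Kcnk3 (0.00408), Kcnn3 (0.00500), Kcnq5 (0.00640) and Vapb (-0.00476); the cause was not tested.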
